A study of Porolithon cf. onkodes and Sporolithon durum with 38 samples.

Results

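In the reef-building coralline alga P. onkodes (Porolithon cf. onkodes), ferritin-3 and heme oxygenase are described here by their transcripts DN73238_c10_g1_i1 and DN95780_c0_g1_i1. These 2 were taken by name from the 118126 transcripts of the P. onkodes count table, because the study's RT-qPCR table listed the first as a gene of interest, annotated as a chloroplastic ferritin, and the second as a reference gene. The annotations are protein matches in other species and were not checked against the algal sequence here. The study took heme oxygenase as a candidate reference for its low variation between these same libraries. Its variation here is therefore a description and not an independent test of stability. From the candidates, the study then settled on heme oxygenase and β-tubulin with geNorm, an analysis of geometric means. That step belonged to its RT-qPCR work and was not repeated here.

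Ferritin is a hollow protein shell that stores iron in a form that does not react, and in plants and algae it is mostly found in the plastid. Heme oxygenase opens the ring of heme, releasing biliverdin, iron and carbon monoxide. In red algae biliverdin is the precursor of the phycobilins, the pigments of the light-harvesting phycobilisomes, so that this enzyme stands between heme and pigment synthesis.

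Fragments of P. onkodes had been kept for 3 months in a control (27.2 °C, pH 8.0, 450 µatm pCO2), at elevated temperature (T; 29.5 °C, pH 8.0, 450 µatm), at reduced pH (pH; 27.2 °C, pH 7.7, 1000 µatm) or under both stressors (T + pH; 29.5 °C, pH 7.7, 1000 µatm). RNA of the pigmented layer was sequenced by CEL-Seq2, which tags the 3′ end of each mRNA with a molecular identifier, and the counts covered 17 libraries, each of a separate fragment. The control, T and pH treatments had 4 libraries each and T + pH had 5. Libraries PO9 and PO13 were not analysed here. The tissue came from collected fragments and not from a clonal culture, and because it was bulk tissue, fewer cells of a type and less RNA per cell cannot be told apart.

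Library totals ranged from 78142 counts (PO19, T + pH) to 3012292 (PO15, T + pH), and the median total was 395136 for control libraries, 492304 for T, 401442 for pH and 861006 for T + pH. PO19 stood apart from the rest, with 6810 transcripts detected against at least 12510 in each other library, and the main results that rested on it are given with and without it. In the library statistics of the study, as read here, PO19 had no entry and PO12 had a larger total than its column of counts, so that both columns were used by their names alone. Levels are given in CPM, the count of a transcript scaled to a common library size after TMM normalization, which corrects for differences in composition.

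The primers designed by the study show which sequences stood for each transcript in its RT-qPCR. They are written 5′ to 3′, so that a reverse primer is read from the strand opposite to its forward primer.
Ferritin-3 forward: atccaccttcacaagccgac
Ferritin-3 reverse: aacgaaaacgagccctgaca
Heme oxygenase forward: aaccagaattacttgtgtcgca
Heme oxygenase reverse: ctgtaccttcattgccagaaagt
The ferritin-3 primers have 20 bases each, with a GC content of 55% and 50%. The heme oxygenase primers are longer, at 22 and 23 bases, and poorer in GC, at 40.9% and 43.5%.

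Each transcript was the only isoform of its gene in the Trinity assembly. The assembly component of ferritin-3 held 2 further transcripts, with 176 and 6 counts in all libraries together against 68266 for ferritin-3 itself. The component of heme oxygenase held no other transcript, and its total was 155 counts. Counts were assigned at the 3′ end and were not divided by transcript length, so that a rank in a library is a rank of counts.

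Ferritin-3 was among the most abundant transcripts of the alga. Its counts ranged from 268 (PO19) to 14146 (PO15), and its share of a library from 0.185% (PO4, control; exact binomial 95% interval 0.167 to 0.205%) to 1.25% (PO3, pH; 1.22 to 1.27%). These intervals cover counting error only. It held the first rank in PO8, PO12 and PO15, the second in PO3, and its median rank was 28, with rank 65 in PO4 as the lowest.

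In the control, the level of ferritin-3 was 1930 CPM in PO4, 3327 in PO10, 7670 in PO16 and 2804 in PO17. In T it was 2470 CPM in PO1, 2919 in PO2, 7696 in PO8 and 2917 in PO18. In T, 3 libraries thus lay close together, with PO8 at more than double their level. In the control, PO16 was at more than double each of the other 3, which were more spread, from 1930 to 3327 CPM.

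Under reduced pH the level of ferritin-3 was 13283 CPM in PO3, 5698 in PO5, 3230 in PO11 and 5403 in PO14. In T + pH it was 1737 CPM in PO6, 3634 in PO7, 8055 in PO12, 4081 in PO15 and 4980 in PO19. PO3 was the highest of all 17 libraries and PO6 the lowest, and the ranges of CPM overlapped in each of the 6 pairs of treatments.

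**Figure D1:**
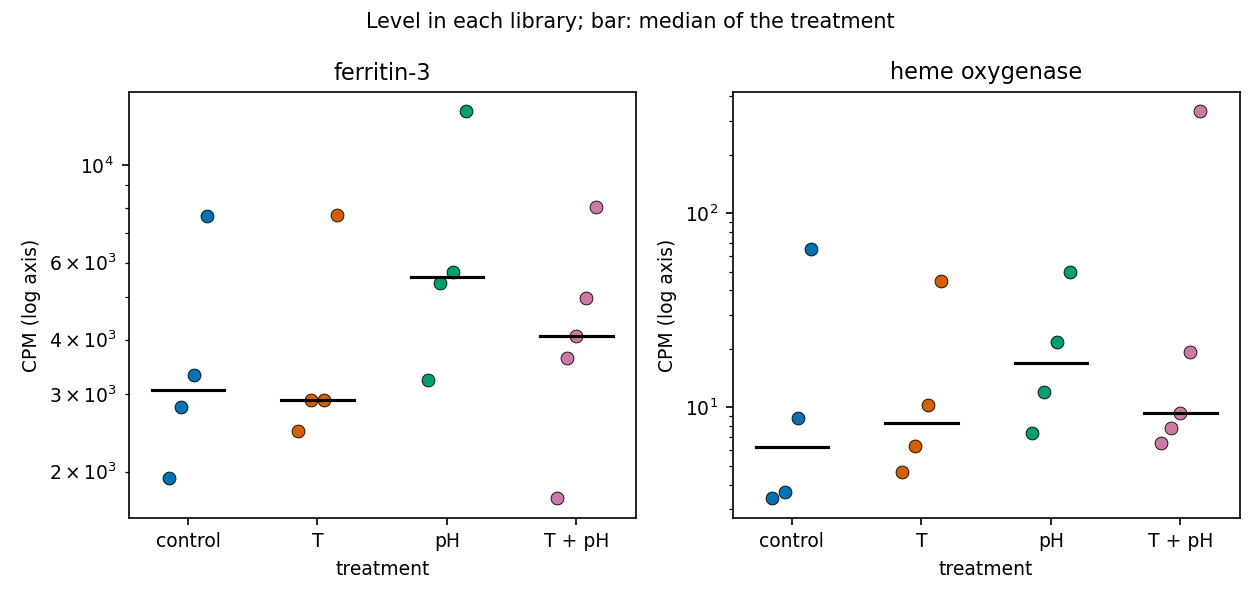
Level of each transcript (CPM, log axis) in the 17 libraries by treatment, where each point is a library and each bar the median of its treatment. Ferritin-3 lies between 1737 and 13283 CPM and heme oxygenase between 3.39 and 334 CPM, with overlap between all treatments.

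Control libraries had a mean ferritin-3 level of 3933 ± 2558 CPM (SD, n = 4), against 4001 ± 2473 with T (n = 4), 6904 ± 4393 with reduced pH (n = 4) and 4497 ± 2315 with T + pH (n = 5). In order of mean level, pH stood first, followed by T + pH, T and the control, and none of these neighbours differed beyond the spread between libraries. The largest fitted difference was between pH and the control, with a log2 fold change of 0.81 (SE 0.50, 95% interval -0.19 to 1.81, edgeR quasi-likelihood test with Benjamini-Hochberg adjustment, FDR = 0.843). In 12 of the 16 pairs of a pH and a control library, the pH library was higher. Without PO3 this log2 fold change was 0.28.

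At elevated temperature alone, ferritin-3 had a log2 fold change of 0.02 against the control (SE 0.50, interval -0.97 to 1.02, edgeR FDR = 1). For T + pH against the control it was 0.19 (SE 0.47, interval -0.75 to 1.14, FDR = 0.977). Both intervals reach well to either side of 0, so that neither a change nor a stable level was shown. The sign of the T + pH value turned without PO12 (-0.15) or PO4 (-0.03), and that of the T value without any 1 of 10 libraries.

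Between stressor treatments, pH exceeded T by a log2 fold change of 0.79 in ferritin-3 (SE 0.50, edgeR FDR = 0.647). For T + pH the value was 0.17 relative to T (SE 0.47, FDR = 1) and -0.62 relative to pH (SE 0.47, FDR = 0.713). The difference with temperature was not shown to depend on pH either, with an interaction of -0.64 (SE 0.69, edgeR FDR = 0.986). The test across all 4 treatments gave an FDR of 0.775.

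Neither transcript was a differentially expressed gene (DEG), which needed a log2 fold change past 0.3 in either direction at an edgeR FDR under 0.05. Of the 29276 tested transcripts, the percentage called against the control was 0 for T, 0 for pH and 0.509 for T + pH. It was 0.0171 when pH was compared with T, 0.102 when T + pH was compared with T and 0.492 when it was compared with pH. The interaction gave 0 and the test across treatments 1.31. Against this background, 0 of 2 calls is what most pairs of transcripts would give. At an unadjusted p under 0.05 the percentages in the same order were 6.92, 5.6, 10.8, 8.71, 8.86, 9.37, 5.75 and 12, which is 2027 transcripts for T, 1639 for pH and 1682 for the interaction, where edgeR called 0. Of the 2 transcripts described here, 0 passed this limit in any of the edgeR tests. DESeq2 called 0, 0, 0.605, 0.041, 0.28, 0.523, 0.0342 and 0.799 percent, and again 0 of the 2, although it gave no adjusted p for the interaction of heme oxygenase.

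**Figure D2:**
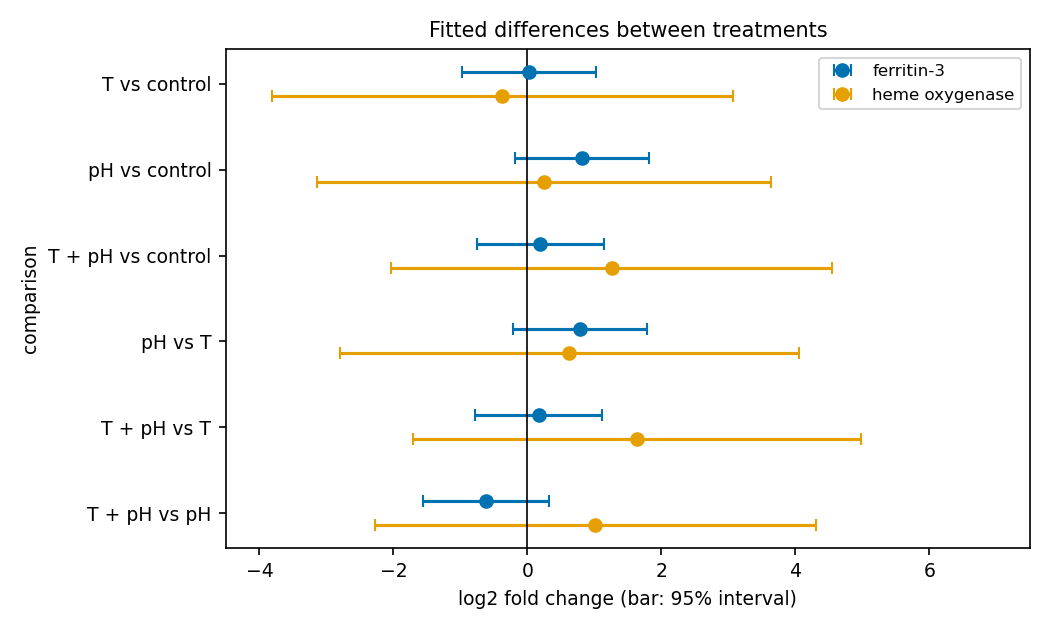
Log2 fold change of each transcript in the 6 pairwise comparisons, with bars for the 95% interval of the edgeR fit. Each interval contains 0, and those of heme oxygenase are more than 3 times as wide as those of ferritin-3.

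Heme oxygenase was detected in all 17 libraries, but by 1 to 27 counts. In the control, 13 counts were found in PO4, 10 in PO10, 4 in PO16 and 1 in PO17. In T the counts were 3 in PO1, 14 in PO2, 5 in PO8 and 8 in PO18. The control library with the most counts of heme oxygenase, PO4, had the smallest total of its treatment.

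Under reduced pH heme oxygenase had 7 counts in PO3, 7 in PO5, 4 in PO11 and 7 in PO14. In T + pH it had 11 in PO6, 8 in PO7, 8 in PO12, 27 in PO15 and 18 in PO19. PO15 and PO19, which held the most counts of heme oxygenase, were the deepest and the shallowest of the 17 libraries.

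Scaled to library size, heme oxygenase reached 65.7 CPM in PO4, 3.67 in PO10, 8.78 in PO16 and 3.39 in PO17 of the control, and 10.3 in PO1, 4.63 in PO2, 6.29 in PO8 and 44.5 in PO18 of T. In pH it reached 11.9 CPM in PO3, 7.40 in PO5, 21.8 in PO11 and 49.7 in PO14, and in T + pH 6.58 in PO6, 9.33 in PO7, 19.4 in PO12, 7.79 in PO15 and 334 in PO19. The highest library of each treatment was the one with the smallest total, except in pH, where it had the second smallest. Its rank ran from 328 in PO19 to 13627 in PO10, with a median of 8350.

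At such counts the share of a single library was known only within wide limits. In PO10, 10 of 2629626 counts gave the lowest share, 0.000380% (exact binomial 95% interval 0.000182 to 0.000699%), and in PO17, 1 of 257316 gave 0.000389% (9.84e-06 to 0.00217%), whereas in PO19, 18 of 78142 gave 0.0230% (0.0137 to 0.0364%). The interval of PO19 overlapped neither of the others, so that counting error alone does not cover the distance between the lowest and the highest library.

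Mean levels of heme oxygenase were 20.4 ± 30.3 CPM for the control (SD, n = 4), 16.4 ± 18.9 for T (n = 4), 22.7 ± 18.97 for pH (n = 4) and 75.5 ± 145 for T + pH (n = 5). Without PO19 the T + pH mean was 10.8 ± 5.84 CPM (n = 4), which turns T + pH from the highest treatment into the lowest. The medians were 6.22, 8.30, 16.9 and 9.33 CPM in the same order, with PO19 included. The order of the treatments thus depended on the measure and on 1 library, and no neighbours in it differed beyond the spread between libraries.

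For T + pH against the control, the log2 fold change of heme oxygenase was 1.26 (SE 1.53, 95% interval -2.03 to 4.55, edgeR FDR = 0.892), and without PO19 it was -0.64 (FDR = 0.897). Against T it was 1.64 (SE 1.55, FDR = 0.930), and -0.23 without PO19. Against pH it was 1.01 (SE 1.53, FDR = 0.871), and -0.83 without PO19. The sign of all 3 comparisons with T + pH was therefore set by PO19. DESeq2 gave larger values for heme oxygenase with PO19 included, at 2.07 against the control (adjusted p = 0.493), 2.38 against T (unadjusted p = 0.0421, adjusted p = 0.546) and 1.93 against pH (adjusted p = 0.654).

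The single stressors gave log2 fold changes for heme oxygenase of -0.38 for T (SE 1.598, interval -3.82 to 3.06, edgeR FDR = 1) and 0.25 for pH (SE 1.57, interval -3.14 to 3.63, FDR = 1) against the control. Without PO4 these became 1.25 and 1.88. The sign for T also turned without PO2 (0.13), and that for pH without PO10 (-0.36), PO14 (-0.36) or PO17 (-0.09). For pH against T the value was 0.63 (SE 1.59, FDR = 0.970). The interaction was 1.39 (SE 2.22, edgeR FDR = 1), -0.41 without PO19 and -0.24 without PO4, and the test across treatments gave an FDR of 0.970. A 4-fold change in either direction lies within each of the pairwise intervals against the control, so that neither a change nor stability of heme oxygenase was shown.

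The coefficient of variation (CV) of CPM over the 17 libraries was 61.7% for ferritin-3 (jackknife SE 14.4). Counting error alone would give 2.90% at its counts, so that counting was a small part of this spread, which was as large within treatments, at 62.4%. Among the 29276 tested transcripts, 20.6% had a lower CV than ferritin-3. Among the 11379 transcripts with at least 100 counts, 52.7% did. Among the 3110 transcripts with a mean of at least 50 CPM, whose median CV was 43.5%, 76.6% did. Without PO3 the CV of ferritin-3 was 48.5%.

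Heme oxygenase had a CV of 218% (jackknife SE 108), and of 107% without PO19. Counting error alone would give 60.9%. The study had looked for candidate references with a low CV in its normalized reads, and what made the CV differ here was not tested. Of all 29276 tested transcripts, 83.6% had a lower CV than heme oxygenase. Of the 11379 transcripts with at least 100 counts, with a median CV of 59.9%, 99.2% had a lower CV, and 92.5% without PO19. The biological coefficient of variation fitted by edgeR, which sets counting error aside, was 1.19 for heme oxygenase, where 97.5% of tested transcripts had a lower value, and 0.509 for ferritin-3. Without PO19 it was 0.719 for heme oxygenase, where 85.5% had a lower value, and 0.528 for ferritin-3.

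Without any scaling, the CV of the raw counts was 68.9% for heme oxygenase and 99.9% for ferritin-3, an alternative chosen after seeing the data. The transcript that varied more in CPM thus varied less in raw counts, while library totals differed from 78142 to 3012292. Each transcript was also compared with library depth, because totals that differ so widely could set a level or a rank.

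The counts of ferritin-3 rose nearly in proportion to library total on average, while its share of a library ranged from 0.185% to 1.25%. Its log2 count rose by 1.05 for each doubling of the total, where 1 stands for proportion, and the median over the 11379 transcripts was 1.15. No relation of its level in log2 CPM (prior count 2) to log10 total was detected (Pearson's r = -0.02, permutation p = 0.946, adjusted p = 0.946 over 3 relations; Spearman's rho = 0.06, permutation p = 0.811, adjusted p = 0.811, n = 17). Without PO15 and PO19, the libraries farthest from the median total, r was 0.03. Over the 17 libraries, the median r of the 11379 transcripts was 0.41, and 10.1% of them had an r at or below that of ferritin-3.

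The counts of heme oxygenase hardly rose with depth. Its log2 count rose by 0.214 for each doubling of the total, which ranked 12 from the lowest among the 11379 transcripts. Without PO19 the rise was 0.373, which ranked 35 from the lowest. Its log2 CPM fell with log10 total (Pearson's r = -0.75, permutation p = 0.00025, adjusted p = 0.00075 over 3 relations; Spearman's rho = -0.76, permutation p = 0.00068, adjusted p = 0.00204, n = 17). Without PO15 and PO19, r was -0.72 (permutation p = 0.0027). Over the 17 libraries, the r of heme oxygenase ranked 8 from the lowest among the 11379 transcripts. CPM and total share the library size, which enters the first as divisor, so that a count unrelated to depth gives a negative r by construction.

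**Figure D3:**
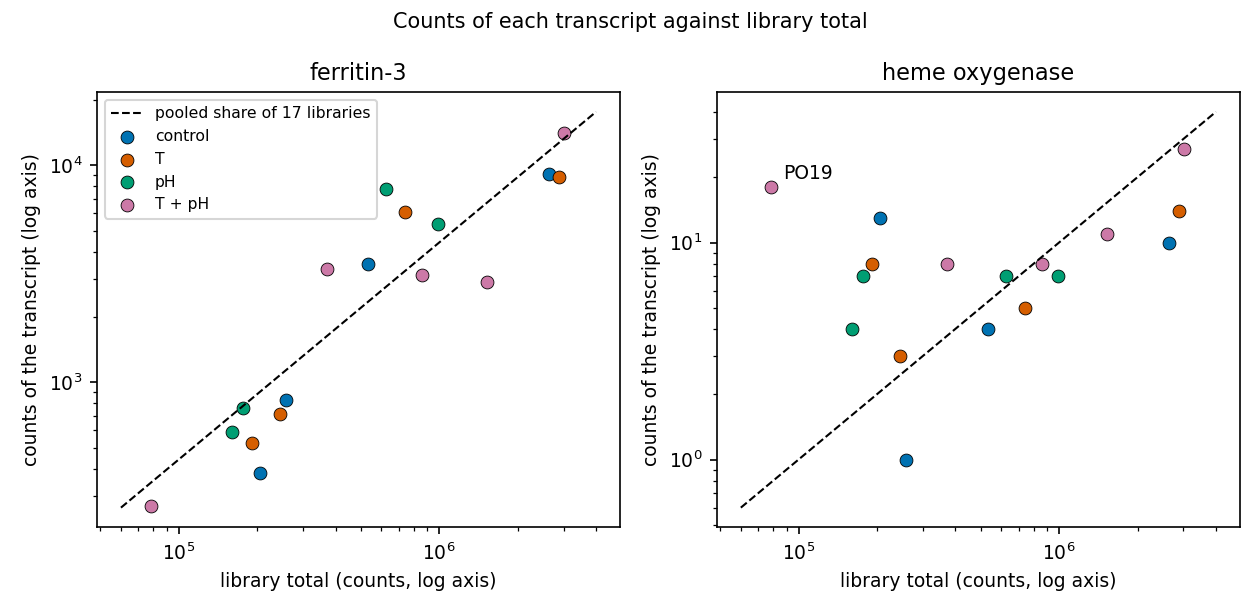
Counts of each transcript against the total of its library, both on log axes, with 1 point for each of 17 libraries coloured by treatment. The dashed line is the share pooled over libraries. Ferritin-3 rises with the line, with scatter around it, from 268 to 14146 counts. Heme oxygenase stays between 1 and 27 counts from the shallowest library (PO19) to the deepest (PO15).

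The relation of heme oxygenase to depth was present within each treatment, with r of -0.55 among control libraries (n = 4), -0.79 for T (n = 4), -0.88 for pH (n = 4) and -0.92 for T + pH (n = 5). These values within treatments are descriptions, given without a test. On deviations from the treatment means r was -0.80. What made the counts of heme oxygenase nearly independent of depth was not tested.

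**Figure D4:**
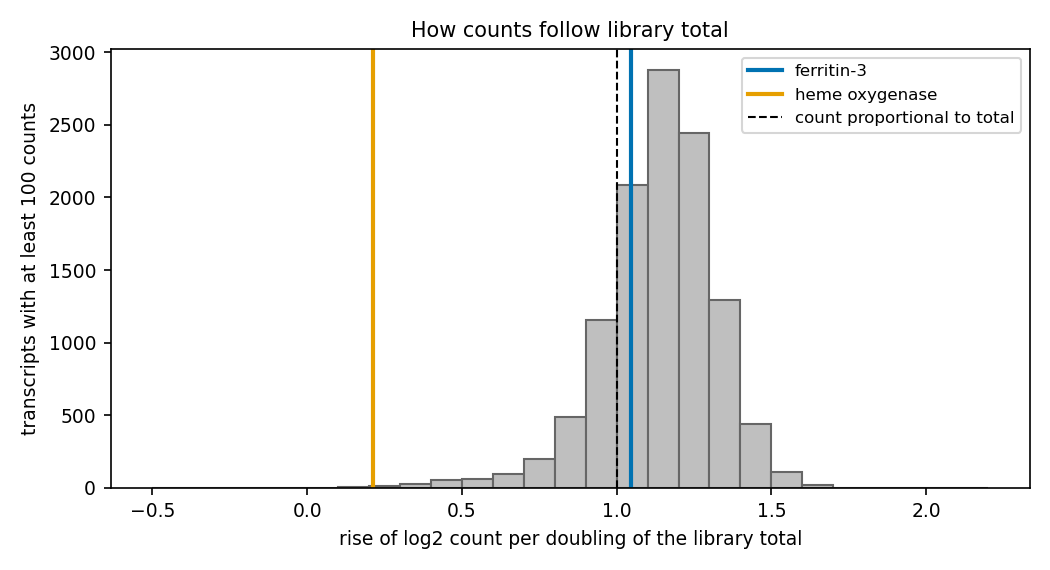
Number of transcripts by the rise of their log2 count per doubling of library total, over the 11379 transcripts with at least 100 counts. Ferritin-3, at 1.05, lies in the body of the distribution, and heme oxygenase, at 0.214, in its lower tail.

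No relation between the levels of both transcripts was detected across libraries (Pearson's r = 0.02, permutation p = 0.938, adjusted p = 0.946; Spearman's rho = 0.09, permutation p = 0.737, adjusted p = 0.811, n = 17). Without PO4 and PO19, the libraries farthest from the median of heme oxygenase, r was 0.16, and on deviations from the treatment means it was -0.05.

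Because heme oxygenase served as a reference in RT-qPCR, the ratio of ferritin-3 to heme oxygenase counts was computed within each library. Such a ratio needs no scaling to library size, but it is not free of depth. Counts of ferritin-3 rose with library total, whereas those of heme oxygenase hardly did. In the control the ratio was 29.4 in PO4, 907 in PO10, 874 in PO16 and 826 in PO17. In T it was 239 in PO1, 631 in PO2, 1224 in PO8 and 65.5 in PO18. The low ratios, of PO4 and PO18, came from the library with the smallest total in each of these treatments.

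Under reduced pH the ratio of ferritin-3 to heme oxygenase was 1113 in PO3, 770 in PO5, 148 in PO11 and 109 in PO14. In T + pH it was 264 in PO6, 389 in PO7, 416 in PO12, 524 in PO15 and 14.9 in PO19. The ratios overlapped between all treatments and spanned 14.9 to 1224 over the 17 libraries, a wider range than that of ferritin-3 itself.

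On the log2 scale, with 0.5 added to each count, the ratio averaged 8.32 ± 2.35 for the control (SD, n = 4), 8.25 ± 1.84 for T (n = 4), 8.30 ± 1.70 for pH (n = 4) and 7.60 ± 2.12 for T + pH (n = 5). The largest of the 6 differences, between T + pH and the control, was -0.73 (two-sided exact permutation test, p = 0.532, adjusted p = 1), and each of the other 5 also had an adjusted p of 1. Without PO19 this difference was 0.21. The smallest p that the design allows is 0.0286 for 4 libraries against 4 and 0.00794 for 5 against 4. Median library totals differed between treatments, and the part of depth in these differences of the ratio was not tested.

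**Figure D5:**
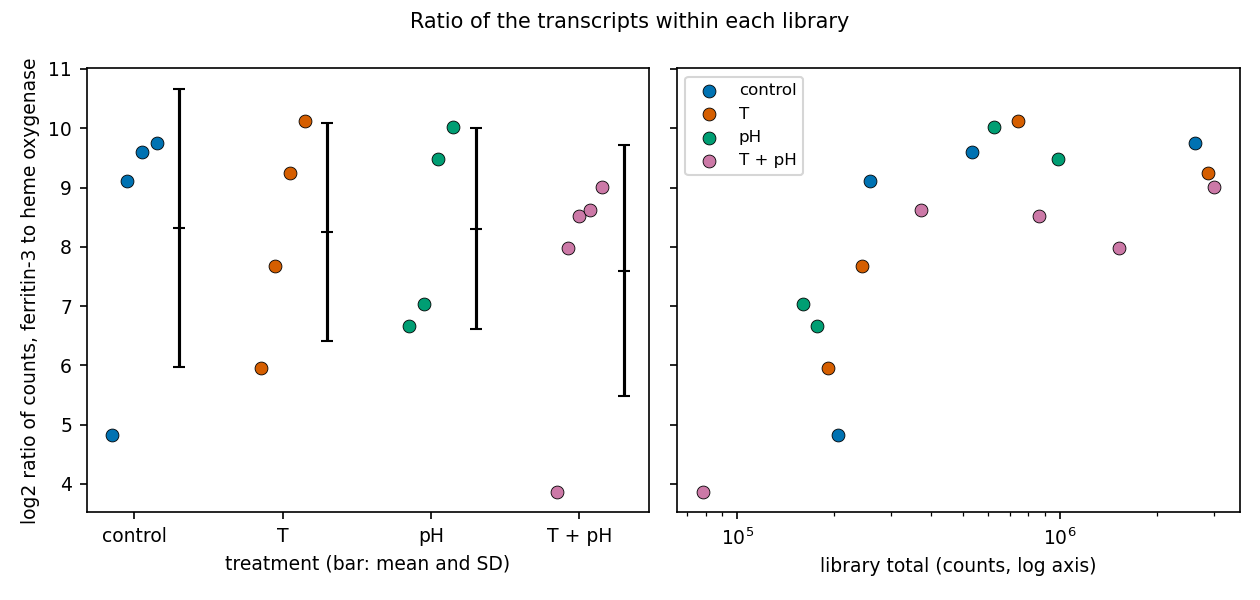
Log2 ratio of ferritin-3 to heme oxygenase counts (0.5 added to each) by treatment, with mean and SD, and against library total on a log axis; each point is 1 of 17 libraries. The treatment means lie between 7.60 and 8.32, and the lowest ratio, 3.86, is that of PO19, the shallowest library.

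The transcripts whose log2 CPM followed each pattern most closely were ranked among those with a total of at least 170 counts. For ferritin-3, the closest of 9141 were DN76443_c1_g1_i1 (Pearson's r = 0.75 over 17 libraries), DN51809_c0_g1_i1 (0.73) and DN74114_c0_g3_i3 (0.72). For heme oxygenase, the closest of 9142 were DN74772_c1_g3_i2 (0.89), DN71204_c4_g2_i2 (0.89) and DN72381_c0_g1_i2 (0.88). The log2 CPM of these last 3 also fell with log10 total, with r of -0.80, -0.79 and -0.77, against -0.75 for heme oxygenase. The part of depth in their likeness was not tested. None of these 6 carries an annotation in the tables used. All were chosen for their likeness, so that no p is given. In PO19, all 3 of the closest to heme oxygenase were far above their means. DN74772_c1_g3_i2 stood at 63790 CPM against 7605, and DN71204_c4_g2_i2 at 102495 against 14327. DN72381_c0_g1_i2 stood at 149 CPM against 26.1, from 8 counts in PO19. Without PO19, r with heme oxygenase was 0.78, 0.77 and 0.76 for the same 3.

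The RT-qPCR table of the study held 5 further P. onkodes transcripts, chosen partly on these libraries. Of these 5, 2 passed in the comparison of T + pH with the control, both higher, against 0.509 percent of all tested transcripts called in either direction. They were GAPDH, a glycolytic and Calvin cycle enzyme, with a log2 fold change of 2.28 (SE 0.49, edgeR FDR = 0.0148), and a transcript annotated as acetyl-CoA, with 2.01 (SE 0.50, FDR = 0.0421). The median log2 fold change of the 5 was 0.86, against 0.01 over all tested transcripts, and this median is the value of β-tubulin, of whose few counts most came from PO15. HSP33, a redox-regulated chaperone, had a value of -1.02 (FDR = 0.256) and photosystem II CP47, an antenna protein of the reaction centre, -1.06 (FDR = 0.814). The slope of log2 count on depth was 1.07 for GAPDH, 1.10 for HSP33, 1.22 for acetyl-CoA and 0.646 for CP47, each above the 0.214 of heme oxygenase.

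β-tubulin, a cytoskeletal protein and the other reference used with heme oxygenase, had 19 counts in all, and 12 of 17 libraries held none of it. A count of 0 allows a share of up to 0.00179% in PO4 (exact binomial 95% limit). In the same libraries heme oxygenase had 155 counts and HSP33, with a CV of 35.4%, had 2930. Ferritin-3, at 61.7%, and heme oxygenase, at 218%, thus both varied more than HSP33 in CPM. The CV was 74.4% for acetyl-CoA, 116% for GAPDH, 128% for CP47 and 186% for β-tubulin. Each of these lay above ferritin-3 and below heme oxygenase.

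For context on iron and heme, 8 further transcripts annotated as iron- or heme-related proteins, or as steps of tetrapyrrole synthesis, were taken from the study's tables of DEGs. The study chose them on these libraries, so that their direction is not independent evidence. Between T + pH and the control, 1 of the 8 was higher, a 2Fe-2S ferredoxin-like electron carrier (log2 fold change 2.96, SE 0.52, edgeR FDR = 0.00161), 1 was lower, ubiquinol oxidase 4, a di-iron oxidase (-5.05, SE 0.82, FDR = 0.000607), and 6 did not pass. Of all tested transcripts, 0.509 percent were called there in either direction. At an unadjusted edgeR p under 0.05, 7 of the 8 passed, against 10.8 percent of all tested transcripts. The median log2 fold change of the 8 was -1.08, against 0.01 over all tested transcripts.

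In the other comparisons, the 8 iron- or heme-related transcripts held 2 higher and 2 lower DEGs when T + pH was compared with pH, and 1 higher and 1 lower when it was compared with T, where 0.492 and 0.102 percent of all tested transcripts were called. The other 3 pairs of treatments held 0. Between pH and the control, the study reported a gene with a lipoxygenase domain as differentially expressed. The lipoxygenase among the 8 had a log2 fold change of 4.48 there (SE 1.07, edgeR FDR = 0.843) and did not pass here. A subunit of magnesium chelatase, which directs protoporphyrin to chlorophyll and away from heme, had a log2 fold change of 1.98 for T + pH against the control (SE 0.69, FDR = 0.174) and was higher than in pH (3.02, SE 0.77, FDR = 0.0487). Ferritin-3 and heme oxygenase, with -0.62 and 1.01 in that last comparison, passed in neither direction.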

How the data were processed

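The values the authors deposited are raw counts of UMIs per transcript, with 1 column for each library and no normalization. They trimmed reads to 60 bp, mapped them with bowtie2 to a Trinity transcriptome with ERCC sequences added, and counted with the CEL-Seq pipeline. Whether the deposited counts include their correction for shared UMIs could not be told. No genome was used. Undetected UMI collisions would lower the counts of abundant transcripts such as ferritin-3 most.

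Of the transcripts, 29276 had 5 or more counts in all over 17 libraries. They were kept, scaled by TMM and fitted with edgeR 4.0.16 (R 4.3.3, limma 3.58.1) in 1 model of 4 treatments, as quasi-likelihood F-tests with robust estimation in the earlier form of the method. The SE is the log2 fold change divided by the square root of F. DESeq2 1.42.0 was an alternative, together with other scaling, filters, isoform sums and omitted libraries. The ratio was tested by two-sided exact permutation with adjustment over 6 pairs, and relations across libraries by 100000 permutations, adjusted over 3. Further steps ran in Python 3.11.15 (scipy 1.17.1, numpy 2.4.6, pandas 2.3.3, with figures by matplotlib 3.10.9). The tests were first tested on simulated data.

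Library totals ranged from 78142 to 3012292 counts. Binomial intervals of shares cover counting error only, whereas intervals of log2 fold changes come from the edgeR fit and include the spread between libraries. Treatments came from the library labels. Pairs of libraries of a treatment differed by more than sampling noise (chi-square per degree of freedom of at least 5.67), so that none was counted as a copy. The transcripts and lists were chosen with earlier results of these data known. The transcripts named were both described, the 5 others of the RT-qPCR table, those of the same assembly components, 8 iron- or heme-related ones and, for each, the 3 of most similar pattern. Counts of Sporolithon durum were not used here.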

Additional observations from a re-analysis of the deposited data

Results flagged for a closer look

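In 12 groups of 4 or 5 libraries, the highest and lowest value was compared with the others by Dixon's criterion. Chance alone passes it in about 1 of 20 groups if values are normally distributed, which was not checked for CPM here. The ratio reuses the counts of both transcripts, so that the 12 groups are not independent and the number of flags is no test. For ferritin-3, PO8 of T was far above the other libraries of its treatment, at 7696 CPM. For heme oxygenase, the high libraries were PO4 of the control at 65.7 CPM, PO18 of T at 44.5 CPM and PO19 of T + pH at 334 CPM. Each of these 3 had the smallest total of its treatment. The log2 ratio of ferritin-3 to heme oxygenase was far below the rest in PO4, at 4.82, and in PO19, at 3.86. The part of library depth in these values was not tested beyond the relation given for heme oxygenase.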

How the results depend on the processing

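No call on ferritin-3 or heme oxygenase changed: the smallest adjusted p over the alternatives, including omitted libraries, was 0.431 for ferritin-3, 0.493 for heme oxygenase and 0.643 for the ratio. Of 214 alternative values for ferritin-3, 198 kept their direction, as did 194 of 206 for heme oxygenase, 43 of 63 for the ratio and 7 of 9 for the relations across libraries. The cause of the changes of sign was not tested.

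The log2 fold change of ferritin-3 for T against the control was -0.011 with a total of at least 170 counts and -0.016 with only these treatments fitted. With log10 total as a covariate, chosen after seeing the data, heme oxygenase had -0.067 for pH against the control and -0.053 for pH against T. With β-tubulin added to the reference the ratio differed by 0.056 for T and 0.30 for pH against the control, and with 1 added to each count by 0.047 for pH. With library totals alone, r was -0.20 for both transcripts and 0.10 for ferritin-3 and depth. Raw counts gave a CV of 99.9% for ferritin-3 and 68.9% for heme oxygenase.

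With each library left out in turn, ferritin-3 ranged from -0.53 (without PO8) to 0.57 (without PO16) for T against the control, from -0.15 (without PO12) to 0.74 for T + pH against the control, and from -0.12 (without PO12) to 0.68 for T + pH against T. It also turned negative without PO4 (-0.03, T + pH against the control) and without PO1 (-0.01, T + pH against T). Heme oxygenase ranged from -1.30 to 1.25 for T and from -0.36 to 1.88 for pH against the control, from -0.64 to 2.89 for T + pH against the control, from -0.23 to 2.53 against T and from -0.83 to 1.603 against pH, and from -0.41 to 2.28 for the interaction. The ratio ranged from -1.24 to 0.70 for T and -1.18 to 0.53 for pH against the control, -1.89 to 0.21 for T + pH against the control, -0.71 to 0.68 for pH against T, -1.42 to 0.28 for T + pH against T and -1.26 to 0.22 for T + pH against pH. The ratio turned sign without PO19 in each comparison with T + pH, without PO10, PO16, PO17, PO1 or PO18 for T against the control, without PO10, PO16, PO17, PO11 or PO14 for pH against the control, and without PO1, PO18, PO3 or PO5 for pH against T. The CV of heme oxygenase ranged from 107 to 236%.

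The median log2 fold change over all tested transcripts moved by over 0.1 with library totals alone, to -0.20 for pH against T and to 0.23 for T + pH against pH. Heme oxygenase, with 155 counts, has no value at a minimum of 170 counts, and PO9 and PO13 were not analysed here. The CV position, biological CV, depth slope and likeness without PO19, given above, were added after seeing the data. No paired analysis was possible because the treatments share no library numbers. At 1 to 27 counts per library, counting error alone gives heme oxygenase a CV of 60.9%, against 218% observed.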
